A study of Mus musculus with 12 samples.

Results

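The genes described here are 4 relatives of the chitinases, Chil1, Chil3, Chit1 and Chid1, measured by RNA sequencing in the brains of 12 mice. They are 4 of the 56748 genes in the deposited table, found there by gene symbol, and 3 of the 4 passed a filter on low values that kept 19571 genes. The set was chosen by gene symbol with measured treatment values of these genes in view, so their differences between treatments are given as a description with no p-value. The mice were adult C57BL/6 animals, an inbred strain, in 3 arms of 4, each with 2 females and 2 males. The PBS arm received phosphate-buffered saline. The LPS arm received lipopolysaccharide, a part of the outer membrane of bacteria that innate immune cells sense, given intraperitoneally at 0.5 mg/kg every day for 7 days. The LPS+DMA arm received the same lipopolysaccharide and a daily injection of N,N-dimethylacetamide (DMA), a small organic solvent, at a dose not given in the sources used here. Brains were taken on day 7, and each mouse gave 1 library of messenger RNA. By its title, the series asks whether DMA lessens the brain inflammation that LPS brings on, and each pair of arms was compared. No arm received DMA without LPS among the samples analysed here.

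Chitinases cut chitin, a polymer that mammals do not make but meet in fungi, insects and parasites, and they share a barrel-shaped fold of the glycoside hydrolase family called GH18. Some mammalian members of this family keep the enzyme activity and others have lost it, binding sugars without cutting them. Chil1 (also called Chi3l1) encodes a secreted glycoprotein without chitinase activity that astrocytes and macrophages release during inflammation, and its human counterpart is measured in spinal fluid as a sign of glial activation. Chil3 (also called Ym1) encodes a lectin without chitinase activity that is made by alternatively activated macrophages and by neutrophils and their precursors in mice. Chit1 encodes an active chitinase, chitotriosidase, made by lipid-laden macrophages. Chid1 encodes a widely expressed GH18 protein without known chitinase activity, which binds stabilin-1, an endocytic receptor of macrophages.

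The stretches of DNA just upstream of the start sites of Chil1 and Chil3 are shown because they are the 2 members with a match to a motif of an inflammatory transcription factor. Both come from RefSeq on build GRCm38.p6, a different build from the GRCm39 of the deposited table, and each covers the 250 bases before the start, read 5′ to 3′ on the gene's strand. Chil1 lies on chr1:134181906-134182155 (+) and Chil3 on chr3:106167565-106167814 (-). Capitals mark the motif match.
Chil1: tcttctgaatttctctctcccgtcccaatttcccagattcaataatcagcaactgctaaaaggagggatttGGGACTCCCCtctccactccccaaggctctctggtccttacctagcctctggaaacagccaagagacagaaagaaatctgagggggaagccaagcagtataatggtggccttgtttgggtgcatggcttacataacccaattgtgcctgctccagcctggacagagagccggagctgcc
Chil3: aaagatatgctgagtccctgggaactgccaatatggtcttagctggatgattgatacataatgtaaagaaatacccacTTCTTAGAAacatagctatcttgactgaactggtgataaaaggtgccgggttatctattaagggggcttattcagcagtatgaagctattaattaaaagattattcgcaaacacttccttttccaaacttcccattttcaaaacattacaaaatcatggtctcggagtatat
The Chil1 stretch held a match to the NF-kB motif, GGGACTCCCC, that began 179 bases before the start. NF-kB is a factor that LPS activates through its receptor, and 7.25% of 32851 RefSeq upstream stretches of this length held its motif on either strand. The Chil3 stretch held TTCTTAGAA, a match to the STAT motif TTCNNNGAA, beginning 172 bases before the start. STAT factors act downstream of cytokine receptors, and 7.02% of the 32851 stretches held this motif. Both matches read as the motif on either strand and do not overlap another motif searched. Neither motif was found in the stretches of Chit1 or Chid1. Other GH18 genes held matches too. Chil4, which was at 0 in all 12 libraries, held the same TTCTTAGAA, Chil6 held the STAT motif and Ctbs the NF-kB motif. Chil5, Chia1 and Ovgp1 held neither. The share of G and C was 51.6% upstream of Chil1 and 36.4% upstream of Chil3. Binding of these factors was not measured, so the matches describe letters only.

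Depth was between 27.5 and 41.4 M (megareads) of recovered reads a library, and every pair of libraries differed by more than sampling noise. The libraries differed in the parts of the brain they held. Gabra6, a receptor subunit of cerebellar granule cells, was between 15.6 and 114 FPKM in PBS female 1, LPS female 1, LPS male 1 and LPS male 2, and at most 0.170 FPKM in the other 8 libraries. FPKM are reads per kilobase of gene, scaled by library. The scaling was not by recovered reads alone. FPKM times kilobases summed to between 916956 (LPS female 2) and 1.10e+06 (LPS+DMA female 2), not to the same value in each library. Of 13 forebrain genes, led by Nrgn and Camk2a, 12 passed as higher in LPS+DMA than in LPS, with sums of 583 to 1084 FPKM in PBS, 30.9 to 1144 in LPS and 962 to 1470 in LPS+DMA. The median difference in that comparison was 2.45 for these genes, -2.54 for 13 cerebellar genes (1 passed) and -0.96 for 8 oligodendrocyte genes (1 passed). Over all genes 9.67% passed there. The summed level of 12 choroid plexus genes, led by Ttr and Enpp2, was 39.0 to 416 FPKM with PBS, 255 to 2024 with LPS and 23.4 to 502 with LPS+DMA. For 7 red blood cell genes the ranges were 71.1 to 116, 243 to 946 and 29.1 to 297 FPKM. The differences of Chil1 and Chil3 below are therefore also given without the 4 libraries with Gabra6.

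Chil1 was the member that differed most clearly between the arms, and it was lowest in LPS+DMA. In PBS, Chil1 (ENSMUSG00000064246, GRCm39 chromosome 1, 134109914 to 134117919, plus strand) stood at 3.28 and 3.11 FPKM in the females and 4.80 and 4.95 in the males. In LPS it stood at 4.65 and 4.07 FPKM in the females and 6.47 and 5.79 in the males. In LPS+DMA it stood at 1.35 and 1.18 FPKM in the females and 2.29 and 2.48 in the males. All 4 LPS+DMA libraries were below every PBS library and every LPS library, while PBS and LPS overlapped, with LPS the higher in 12 of 16 pairs of libraries. Between 91 and 692 reads per library stood behind these values, 4411 in all.

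The mean level of Chil1 was 4.04 ± 0.972 FPKM with PBS, 5.25 ± 1.09 with LPS and 1.82 ± 0.655 with LPS+DMA (SD, n = 4 each). The LPS+DMA mean was 2.88-fold lower than the LPS mean and 2.21-fold lower than the PBS mean, and the LPS mean was 1.30-fold the PBS mean. On the scale of log2(FPKM + 1), which understates the change of low genes, the difference was -1.16 for LPS+DMA against LPS, -0.84 for LPS+DMA against PBS and 0.31 for LPS against PBS, each with an SE of 0.099. These comparisons share arms, so they are not independent of each other. In whole tissue, fewer cells of a type and less RNA per cell cannot be told apart.

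Chil1 was the 1 tested member of 3 that passed the threshold of limma (adjusted p under 0.05) in LPS+DMA against LPS, where 9.67% of all genes passed. It was also the 1 of 3 that passed in LPS+DMA against PBS, where 0.0102% of genes, 2 in all, passed. No member passed in LPS against PBS, where limma called 0.0102% of genes after adjustment and 2145 genes had an unadjusted p under 0.05. Among all genes, 5.98% had every LPS+DMA library below every LPS library, and 2.93% had every LPS+DMA library below every PBS library. Since these contrasts were in view when the genes were chosen, nothing is read from these shares.

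The Chil1 differences were of like size without the 4 libraries that held Gabra6, at -1.15 (SE 0.21) for LPS+DMA against LPS and -0.82 (SE 0.13) for LPS+DMA against PBS, but neither passed with the fewer libraries. Only LPS female 2 is left in the LPS arm of that fit. With single libraries left out, the difference from LPS ranged from -1.20 to -1.11, and Chil1 passed each time. The difference from PBS ranged from -0.88 to -0.81. Chil1 passed there only without LPS female 1 or without LPS female 2, losing the call when any other library was left out. These contrasts were in view when the genes were chosen, so nothing is read from how often Chil1 passed.

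Markers of the cells known to make Chil1 are given beside it. Reactive astrocyte genes, 18 in all and led by Gfap and H2-D1, summed to 76.5 to 105 FPKM with PBS, 154 to 210 with LPS and 63.1 to 125 with LPS+DMA, with no marker at 0 in every library. The 12 genes of astrocytes at large, led by Aldoc and Slc1a2, summed to 742 ± 83.2 FPKM with PBS, 878 ± 134 with LPS and 696 ± 85.2 with LPS+DMA (SD, n = 4 each), and 12 microglial genes, Csf1r among them, to 112 ± 11.9, 145 ± 24.9 and 88.4 ± 24.8. In LPS+DMA against LPS, 5 of 16 tested reactive astrocyte genes fell, 1 of 12 astrocyte genes rose and 1 fell, and 6 of 12 microglial genes fell. Over all 19571 genes 9.67% passed there, 1133 higher and 759 lower. With 1 library left out, the calls over all genes in that comparison ranged from 7 to 3465, so these counts per list may not hold. In the other 2 comparisons 0 genes of these 3 lists passed (limma). The part of cell numbers in the Chil1 values was not tested.

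**Figure D1:**
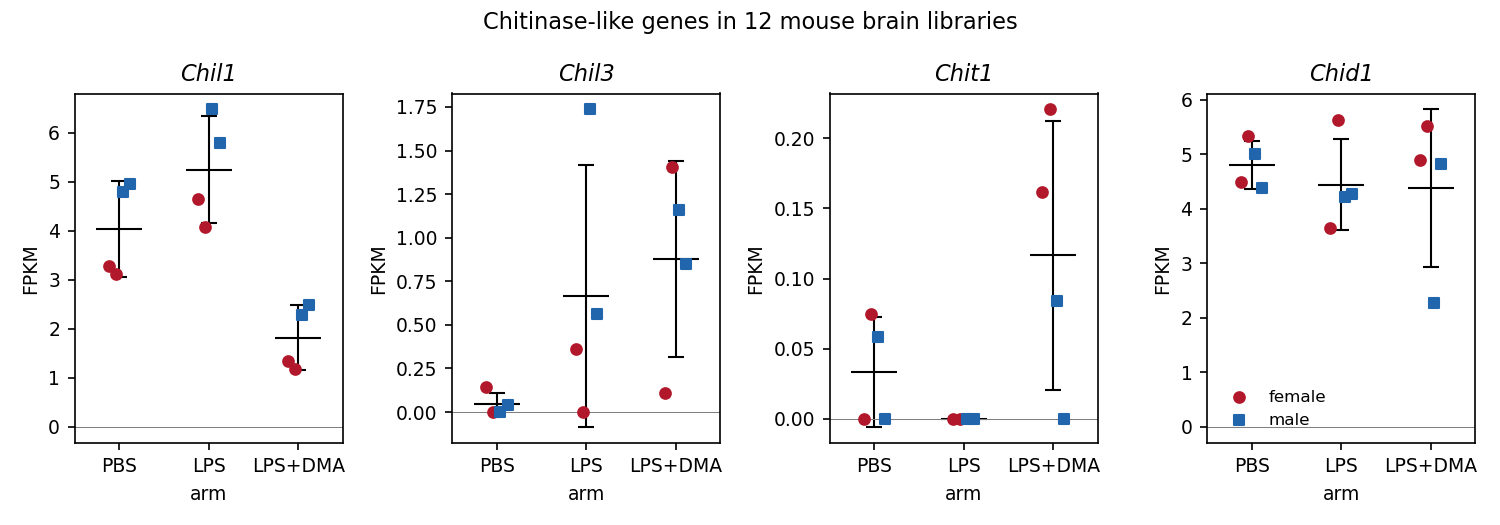
FPKM of the 4 genes in the 12 libraries, by arm on the x axis, with circles for females, squares for males, and horizontal lines with bars for the mean and SD of 4 libraries. Each panel has its own scale. All 4 LPS+DMA libraries are lowest for Chil1, between 1.18 and 2.48 FPKM, males lie above females in each arm for this gene, and all 4 LPS libraries of Chit1 are at 0.

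Chil1 was higher in males than in females in every arm, a measure that played no part in choosing the genes. Both males stood above both females in 3 of 3 arms, and the mean was 4.46 FPKM in males and 2.94 in females, a ratio of 1.52. The difference of log2(FPKM + 1), female minus male, was -0.49 (SE 0.081). It missed the threshold over all genes, with an adjusted p of 0.143 by limma with Benjamini-Hochberg adjustment. In that test 7 genes passed, 0.0358% of all, and 7 of the 7 lie on the X or Y chromosome. By its p-value Chil1 ranked 9 of 19571 genes and 1 of 13607 autosomal coding genes. A two-sided exact permutation test of sex within arms gave an unadjusted p of 0.00926, the smallest that its 216 arrangements can give. The same exact permutation test gave 0.241 for Chil3, 0.167 for Chit1 and 0.25 for Chid1. Without the 4 libraries with Gabra6 the Chil1 difference was -0.55 (SE 0.13, limma adjusted p of 0.736). Over the alternative settings the adjusted p from limma lay between 0.0824 and 0.736, so the sex difference passed under none of the 22 settings with a sex term, and its direction was the same in all 22.

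The treatment differences of Chil1 did not differ detectably between the sexes. LPS+DMA was 3.45-fold below LPS in females and 2.57-fold below in males, and 2.53-fold and 2.04-fold below PBS. LPS was 1.36-fold the PBS mean in females and 1.26-fold in males. The female change minus the male change was -0.17 (SE 0.21) for LPS+DMA against LPS, -0.10 (SE 0.21) for LPS+DMA against PBS and 0.07 (SE 0.21) for LPS against PBS, on the log2(FPKM + 1) scale. None of the 3 tested members passed in any of these, with limma adjusted p-values of 0.870 to 1.00. Over all genes limma called 0%, with 1008, 1110 and 491 genes at an unadjusted p under 0.05 in the same order. With 2 animals per sex and arm, differences of the size of these SEs were not detectable.

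Chil3 was scarce in PBS and varied widely among the treated mice. In PBS, Chil3 (ENSMUSG00000040809, GRCm39 chromosome 3, 106054870 to 106074880, minus strand) stood at 0.141 and 0 FPKM in the females and 0 and 0.0381 in the males. In LPS it stood at 0.361 and 0 FPKM in the females and 1.74 and 0.564 in the males. In LPS+DMA it stood at 0.108 and 1.40 FPKM in the females and 1.16 and 0.848 in the males. LPS male 1 was the highest library and LPS female 2 had no read, so the LPS arm spanned the whole range, and the arms overlapped in each comparison. The reads in each arm numbered 12, 164 and 167, and a library with no read can hold up to the FPKM of 3 reads, 0.0489 to 0.0589 in these libraries. Such limits cover counting error only. Most nonzero counts of Chil3 were even numbers, so reads may have been counted in pairs, and these limits may then be too low.

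The mean of Chil3 was 0.0448 ± 0.0666 FPKM with PBS, 0.665 ± 0.751 with LPS and 0.880 ± 0.563 with LPS+DMA (SD, n = 4 each). The log2(FPKM + 1) difference was 0.57 for LPS against PBS, 0.22 for LPS+DMA against LPS and 0.79 for LPS+DMA against PBS, each with an SE of 0.28. Without the 4 libraries that held Gabra6, the differences were 0.11 (SE 0.44), 0.76 (SE 0.41) and 0.87 (SE 0.27). Only LPS female 2, which had no read of Chil3, is left in the LPS arm of that fit. The value near 0 against PBS follows from that 1 library, and so does the comparison of LPS+DMA with LPS. Nothing about LPS is drawn from them. Single libraries also set these values. LPS against PBS was 0.33 without LPS male 1, and LPS+DMA against LPS was 0.46 without LPS male 1, 0.42 without LPS+DMA female 1, 0.15 without LPS male 2, 0.04 without LPS female 2 and -0.0036 without LPS+DMA female 2. Females averaged 0.336 FPKM and males 0.724, which did not pass (limma adjusted p of 0.656, Benjamini-Hochberg).

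Of 13 neutrophil markers 7 were tested and 0 passed limma's threshold in any of the 3 comparisons. Over all genes 9.67% passed in LPS+DMA against LPS, so nothing is read from 0 of 7. The sum of the 13, led by S100a9 and S100a8, was 0.414 to 1.78 FPKM with PBS, 3.40 to 57.2 with LPS and 4.25 to 19.6 with LPS+DMA. None was at 0 in every library. S100a9 had reads in every library and Ngp, a granule protein gene, was at 0 in 1 library and reached 5.24 FPKM. Ly6g and Elane were at 0 in 9 of 12 libraries each and reached 0.446 and 0.373 FPKM. The highest values of S100a9, Ngp, Camp, Retnlg, Ly6g and Elane were all in LPS male 1, the library with the most Chil3. The 10 monocyte markers, a list that holds Chil3 itself, summed to 6.59 ± 1.55, 10.4 ± 1.40 and 9.18 ± 1.88 FPKM (SD, n = 4 each) in PBS, LPS and LPS+DMA. Only 3 of the 10 were tested. Fn1 (means of 4.65, 6.90 and 6.44) and Vcan (1.57, 1.66 and 1.68) made up most of the sum. Other markers of the list were scarce. Ccr2 was 0.0236 to 0.207 FPKM in PBS, 0.0907 to 0.119 in LPS and 0.00903 to 0.0569 in LPS+DMA. For Ly6c2 the ranges were 0.0198 to 0.0924, 0.0117 to 0.354 and 0 to 0.0321. For Plac8 they were 0 to 0.0341, 0.0403 to 0.353 and 0 to 0.0966. Of the genes expressed with Chil3 in alternatively activated macrophages, Arg1 was at 0.265 FPKM or less and Retnla was at 0 in 10 of 12 libraries. Mrc1, the mannose receptor, was 0.426 to 0.639 FPKM in PBS, 0.690 to 1.00 in LPS and 0.332 to 0.976 in LPS+DMA. Each LPS library was above each PBS library, which held for 703 of all 19571 genes kept, so nothing is read from it. The part of blood or infiltrating cells in the Chil3 values was not tested.

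Chit1, the active chitinase, was close to the limit of detection. Chit1 (ENSMUSG00000026450, GRCm39 chromosome 1, 134038980 to 134079278, plus strand) had 35 reads in all 12 libraries together and was left out by the filter. Both LPS females and both LPS males had 0 reads. In LPS+DMA it stood at 0.161 and 0.220 FPKM in the females and 0.0841 and 0 in the males, from 26 reads, and in PBS at 0 and 0.0747 in the females and 0.0587 and 0 in the males, from 9 reads. The highest library, LPS+DMA female 2, held 11 reads. A count of 0 allows 0.0422 to 0.0530 FPKM in the LPS libraries, and the arms overlapped in each comparison, so no difference is drawn from them. Chit1 lies 30.6 kb below Chil1 on the same chromosome and strand, with no other coding gene of the table between them.

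Chid1 was at a similar level in the 3 arms, with differences smaller than the spread between mice. In PBS, Chid1 (ENSMUSG00000025512, GRCm39 chromosome 7, 141073049 to 141119770, minus strand) stood at 4.50 and 5.34 FPKM in the females and 5.0 and 4.38 in the males. In LPS it stood at 3.66 and 5.62 FPKM in the females and 4.22 and 4.27 in the males. In LPS+DMA it stood at 4.90 and 5.53 FPKM in the females and 2.27 and 4.83 in the males. The arms overlapped throughout, and LPS+DMA male 1 was the lowest library. The means were 4.80 ± 0.447 FPKM with PBS, 4.44 ± 0.834 with LPS and 4.38 ± 1.44 with LPS+DMA (SD, n = 4 each). The log2(FPKM + 1) differences were -0.10 for LPS against PBS, -0.05 for LPS+DMA against LPS and -0.15 for LPS+DMA against PBS, each with an SE of 0.19. Without LPS+DMA male 1 the comparisons with LPS+DMA changed sign, to 0.16 against LPS and 0.06 against PBS.

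Chid1 was measured from far more reads than the other members, 808 to 2138 a library, and its highest library was 2.47-fold its lowest, against 5.48-fold for Chil1. Females averaged 4.92 FPKM and males 4.16, which did not pass (limma adjusted p of 0.689, Benjamini-Hochberg). The table places Chid1 across Tspan4, a gene on the opposite strand, and whether the reads were counted by strand is not stated, so the split between the pair is uncertain. Tspan4 stood at 4.77 ± 1.79, 9.41 ± 4.60 and 4.83 ± 2.50 FPKM (SD, n = 4 each) in PBS, LPS and LPS+DMA. Chil3 is uncertain for another reason, since it is nearly identical to Chil4, which was at 0 in all 12 libraries, and how reads that match both were counted is not stated.

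In order of the mean over all 12 libraries, the levels per length were 4.54 FPKM for Chid1, 3.70 for Chil1, 0.530 for Chil3 and 0.0499 for Chit1. The ranges of Chid1 and Chil1 overlapped, and in LPS Chil1 was the higher by mean, 5.25 against 4.44 FPKM, while in LPS+DMA it was the lower, 1.82 against 4.38. For the 3 members that passed the filter, Pearson's r of log2(FPKM + 1) across the 12 libraries was -0.14 between Chil1 and Chil3, -0.10 between Chil1 and Chid1 and -0.38 between Chil3 and Chid1. After subtracting the arm means, r was 0.42, -0.48 and -0.30 in the same order, so the sign for Chil1 and Chil3 turned. These values are a description, and the libraries share arms, sex and brain content.

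**Figure D2:**
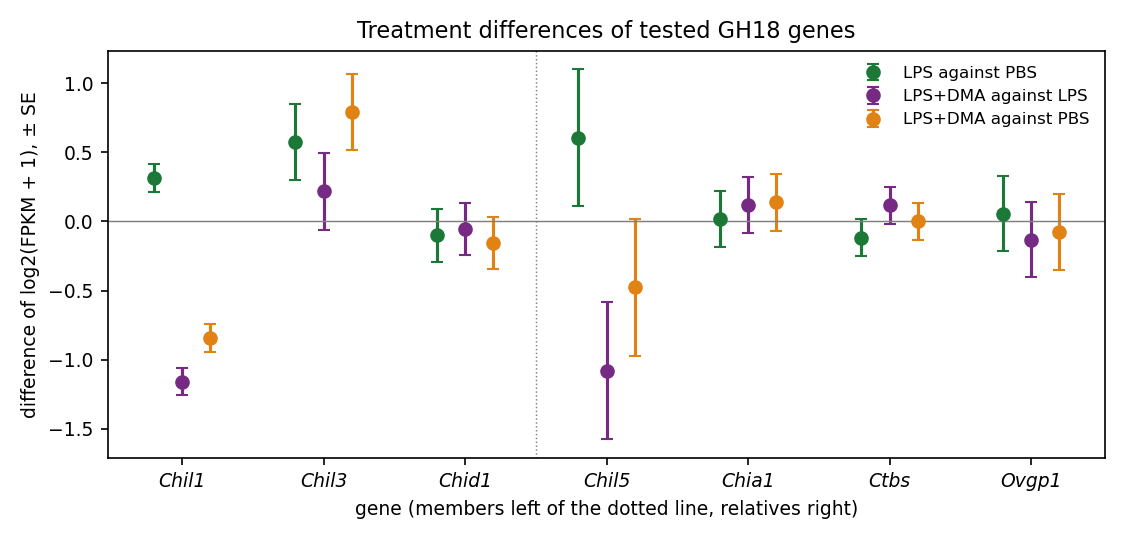
Differences of log2(FPKM + 1) between arms (y axis, points with SE bars from limma) for the 3 members that passed the filter, left of the dotted line, and 4 GH18 relatives, right of it. Chil1 lies at -1.16 and -0.84 in the comparisons with LPS+DMA, while every Chid1 point lies within 1 SE of 0.

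The other GH18 genes of the table showed no change that passed. Of 6 relatives 4 were tested and 0 passed limma's threshold in any of the 3 comparisons. Over all genes 9.67% passed in LPS+DMA against LPS, so nothing is read from 0 of 4. Chil5 had the widest differences, -1.08 (SE 0.50) for LPS+DMA against LPS, with an adjusted p of 0.178 (limma, Benjamini-Hochberg). Chia1, an active acidic chitinase, stood at 0.474 ± 0.211, 0.527 ± 0.443 and 0.622 ± 0.227 FPKM in PBS, LPS and LPS+DMA (SD, n = 4 each). Ctbs, a lysosomal chitobiase, stood at 1.48 ± 0.237, 1.29 ± 0.272 and 1.48 ± 0.254 FPKM (SD, n = 4 each). Mybph, a muscle protein gene 3.27 kb above Chil1 and its next coding neighbour, was 0.09 higher in LPS+DMA than in LPS on the log2(FPKM + 1) scale, where Chil1 was 1.16 lower, and it did not pass (adjusted p of 0.818, limma with Benjamini-Hochberg).

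None of the tested genes that act around Chil1 passed in any comparison. Of 9 known receptors and binding partners 6 were tested and 0 passed. Over all genes 9.67% passed in LPS+DMA against LPS and 0.0102% in each comparison with PBS. Nothing is therefore read from 0 of 6, nor from 0 of 19 below. The median of the 6 genes in LPS+DMA against LPS was -0.08, beside 0.01 for all genes. Cd44, a receptor for hyaluronan and for Chil1, was 0.747 FPKM with PBS, 0.796 with LPS and 0.485 with LPS+DMA. Lgals3, which encodes the lectin galectin-3, was 0.399, 0.698 and 0.628 FPKM in the same order. Of 19 cytokine receptors and transcription factors known to lie upstream of Chil1, 0 of 19 tested passed in any comparison, and their median in LPS+DMA against LPS was -0.05. The nearest in LPS+DMA against LPS was Ifngr1, the interferon gamma receptor, at -0.55 (SE 0.16, limma adjusted p of 0.0555), with 4.68 FPKM with PBS, 7.20 with LPS and 4.69 with LPS+DMA. Il1r1, the interleukin-1 receptor, was 0.740 FPKM with PBS, 1.50 with LPS and 1.60 with LPS+DMA, and did not pass in either comparison with PBS.

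Among 15 genes of alternative activation, the state Chil3 is known for, 9 were tested. In LPS against PBS 0 passed, with a median of 0.26. Clec7a, the fungal glucan receptor dectin-1, fell in LPS+DMA against LPS from 0.933 to 0.0914 FPKM, a log2(FPKM + 1) difference of -0.82 (SE 0.12). It passed limma's threshold, but it reached the filter of 0.5 FPKM only in LPS libraries, so nothing is read from the call. Clec7a was 0.260 FPKM in PBS, and the other 8 tested did not pass. This 1 call of 9 is near the 9.67% of all genes that passed there, so nothing about the list is read from it. Chil3 stood at 0.665 FPKM in LPS and 0.880 in LPS+DMA over the same libraries. The median over the 9 was -0.16, beside 0.01 for all genes.

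The genes grouped with Chit1 by function split in both directions. Of 19 lysosomal glycosidases and related enzymes tested, 2 fell and 1 rose in LPS+DMA against LPS, with a median of -0.17 over the 19, where 9.67% of all genes passed, 1133 higher and 759 lower. Gusb, beta-glucuronidase, fell from 3.88 to 2.37 FPKM (-0.54, SE 0.11), and Ids, iduronate sulfatase, rose from 72.7 to 116 (0.68, SE 0.14). Of 12 tested genes of lipid-laden macrophages 5 fell and 2 rose, against the same 9.67%, with a median of -0.27. Spp1, osteopontin, fell from 68.5 to 10.4 FPKM (-2.39, SE 0.54), Trem2, a lipid-sensing microglial receptor, fell from 2.69 to 1.06, and Fabp5, Ctsd and Plin2 fell as well. Lpl, lipoprotein lipase, rose from 1.09 to 3.38 FPKM, and the sterol transporter Abcg1 rose from 9.38 to 13.7. Some of these differences were over 1.5 times smaller without the 4 libraries with Gabra6. That fit left only LPS female 2 in the LPS arm. Spp1 was then at -0.66, Plin2 at -0.27 (from -0.95), Lpl at 0.54 (from 1.10) and Ids at 0.26. With a covariate for forebrain minus cerebellar genes they were at -0.78, -0.38, 0.53 and 0.30. The other named genes moved less. Without those libraries Trem2 was at -1.04 (from -0.86), Fabp5 at -0.67 (from -0.64) and Ctsd at -0.47 (from -0.49). Abcg1 was at 0.46 (from 0.49) and Gusb at -0.41. With the covariate Trem2, Fabp5, Ctsd, Abcg1 and Gusb were at -1.10, -0.76, -0.45, 0.68 and -0.45. Trem2 also belongs to the microglial markers, whose sums are given with Chil1 above. Chit1 itself had 0 reads in LPS and 26 in LPS+DMA.

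Of the genes listed with Chid1, 0 of 4 tested passed in any comparison, with a median of -0.12 in LPS+DMA against LPS. They were Stab1, which encodes the stabilin-1 that Chid1 binds, and the GGA sorting adaptors Gga1, Gga2 and Gga3. Over all genes 9.67% passed in LPS+DMA against LPS, so nothing is read from 0 of 4. Stab1 was 1.39 FPKM with PBS, 1.99 with LPS and 1.31 with LPS+DMA. No gene of these lists passed in LPS against PBS or in LPS+DMA against PBS. The calls in LPS+DMA against LPS named here were lost in 3 of the 4 fits that leave out 1 LPS library. Without LPS female 1, without LPS male 1 or without LPS male 2, the 1, 3 and 7 genes called in the alternative activation, glycosidase and lipid-laden lists became 0 in each list, while calls over all genes went from 1892 to 11, 7 and 22. The differences themselves stayed near their size, with Clec7a at -0.80, -0.79 and -0.84, Spp1 at -2.14, -2.17 and -2.25, and Lpl at 0.98, 1.05 and 1.05 in the same order. The alternative activation list had 2 calls without LPS+DMA female 2 or male 2, and the lipid-laden list 4 without LPS+DMA female 1 or male 1.

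The coding genes most like Chil1 over the 12 libraries were Acss2, Gsta4, Sc5d, Glud1 and Unc119, chosen by the highest Pearson r of log2(FPKM + 1) among 14097 coding genes. Acss2, which makes acetyl-CoA from acetate, had an r of 0.938, and 0.791 after subtracting the arm means. Its level was 5.48 ± 0.437 FPKM with PBS, 5.92 ± 1.10 with LPS and 3.78 ± 0.536 with LPS+DMA (SD, n = 4 each). Gsta4, a glutathione transferase, had an r of 0.933 and went from 37.0 ± 5.06 FPKM in LPS to 18.5 ± 1.01 in LPS+DMA. Sc5d, an enzyme of cholesterol synthesis, had 0.922, Glud1, glutamate dehydrogenase, 0.920, and Unc119 0.919. Without the 2 libraries farthest from each gene's median, r lay between 0.871 and 0.920. As maxima over many genes these values carry no test, and the libraries share the arms, sex and brain regions they held.

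The pattern of Chil3 was most like that of S100a8, at an r of 0.893, followed by Tns1 at 0.893, S100a9 at 0.884, C030006K11Rik at 0.872 and Eme2 at 0.869. S100a8 and S100a9 encode the pair of subunits of calprotectin, an abundant protein of neutrophils. S100a8 was 0.212 ± 0.193 FPKM with PBS, 5.70 ± 6.64 with LPS and 3.95 ± 2.39 with LPS+DMA (SD, n = 4 each). LPS male 1, the highest library for Chil3, was also the highest for S100a8, at 15.2 FPKM, and LPS female 2, without a read of Chil3, had none of S100a8. Chid1 was most like Galnt2, at an r of 0.943, which fell to 0.750 without the 2 farthest libraries, then Slc4a1ap, Gpr17, Aptx and Impdh1. Galnt2, which starts O-linked glycosylation in the Golgi, was 12.4 ± 0.964, 11.6 ± 1.54 and 11.7 ± 3.78 FPKM in PBS, LPS and LPS+DMA (SD, n = 4 each), and its lowest library too was LPS+DMA male 1.

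**Figure D3:**
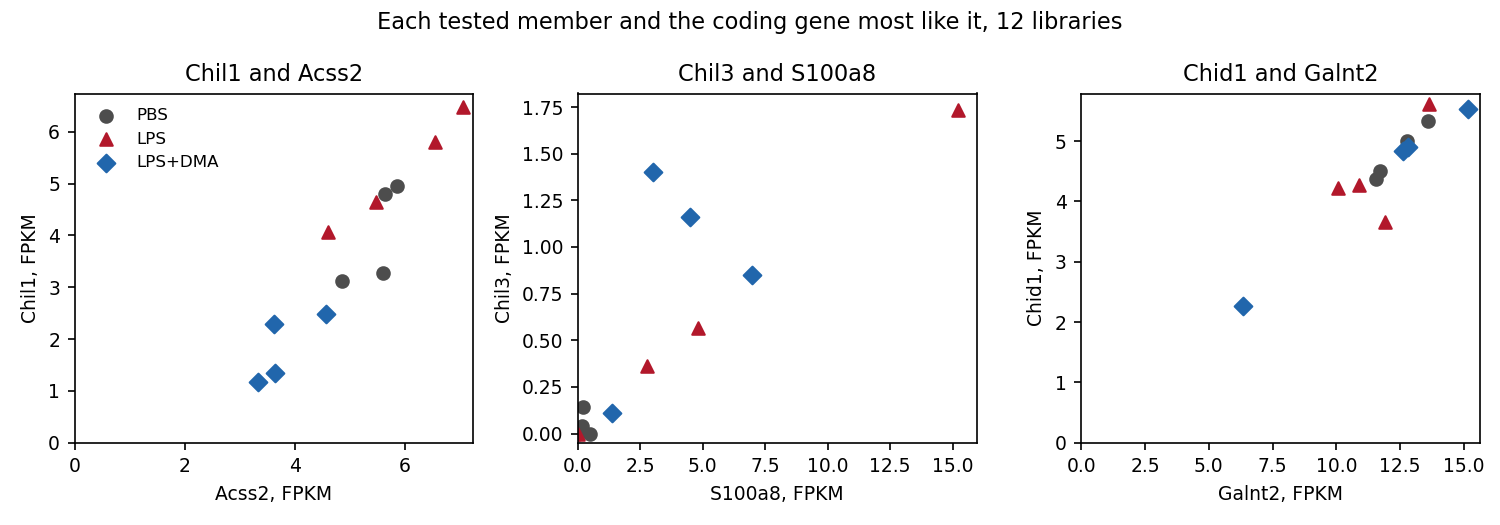
FPKM of each tested member (y axis) against that of the coding gene with the highest Pearson r (x axis), 1 point per library, circles for PBS, triangles for LPS and diamonds for LPS+DMA. The LPS+DMA libraries form the low end for Chil1 and Acss2, 1 LPS library lies far right for S100a8 at 15.2 FPKM, and 1 LPS+DMA library sets the low end for Chid1 at 2.27.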

How the data were processed

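The authors deposited FPKM values for 56748 genes and 12 libraries, together with gene lengths, names and GRCm39 coordinates. The submitters' processing notes name, with no role or order, the aligners STAR and HISAT2 2.2.1, the counter featureCounts 2.0.6, fastp, GATK, edgeR 4.0.16 and DESeq2 1.42.0, and the labels' protocols describe stranded and unstranded preparations without saying which was used. The FPKM values were whole multiples of 1 read within 0.1 reads for values up to 1000 reads, which gave the recovered reads used for depth and floors. Depth was 27.5 to 41.4 M recovered reads. The 19571 genes that reached 0.5 FPKM in 2 or more libraries were tested in R 4.3.3 with limma 3.58.1 on log2(FPKM + 1), with terms for arm and sex, moderated variances with trend and robust settings, and Benjamini-Hochberg adjustment at 0.05 over all of them. Differences between sexes were fitted with 1 mean per arm and sex. The script was tested on simulated data. Per the labels each library is a separate mouse.

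The 4 genes, the gene lists and the marker lists were chosen with earlier results of these data known. The text names all 4 genes, their GH18 relatives, up to 3 genes of the smallest p per list and comparison, the 2 highest genes per marker list, the 5 most similar coding genes and the nearest coding neighbours. Other genes, Gabra6, Cd44, Lgals3, Ngp, Camp, Retnlg, Ly6g, Elane, Ccr2, Ly6c2, Plac8, Mrc1, Arg1, Retnla and Tspan4, were named for their function or position after their values were seen. The values of 1 further gene of these lists are not reported here. Upstream sequences matched 4 of 4 genes by symbol. Protein sequences were not used here. Alternatives covered the pseudocount, filter, scaling, variance model, terms and libraries in the fit.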

Additional observations from a re-analysis of the deposited data

Results flagged for a closer look

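In 25 groups of 4 libraries, 4 had 1 library far from the rest of its group by Dixon's criterion. For values with a normal spread, chance alone gives about 1 in 20 groups. None concerned the 4 genes themselves. Chil5 stood at 3.34 FPKM in PBS female 1, where the other PBS libraries held 0.0353 to 0.0719. Ovgp1, an oviduct glycoprotein of the same family, stood at 3.01 FPKM in LPS+DMA male 1, where the other LPS+DMA libraries held 0.255 to 0.691. Chil6 stood at 0.0944 FPKM in LPS male 1 from 6 reads and at 0.0366 FPKM in LPS+DMA male 1 from 2 reads, with 0 in the other libraries of both arms. Where the others are all 0 any read is flagged, so the rate of 1 in 20 does not hold for Chil6.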

How the results depend on the processing

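Chil1 had the same sign in all 25 settings for each treatment comparison. It passed in 22 of 25 for LPS+DMA against LPS, 7 of 25 for LPS+DMA against PBS and 0 of 25 for LPS against PBS. The genes were chosen with these contrasts in view, so nothing is read from the counts of settings. LPS+DMA against LPS was -1.52 with a pseudocount of 0.1, -1.30 with plain per-million scaling, -1.73 with voom on recovered reads and -1.01 with choroid plexus and blood covariates. LPS+DMA against PBS was -1.14, -0.94 and -1.31 under the first 3, and LPS against PBS 0.42 with voom and 0.17 with the choroid plexus and blood covariates. Chil3 in LPS against PBS was 1.85 (pseudocount), 3.81 (voom), 0.11 (libraries with Gabra6 of at least 5 FPKM left out) and 0.12 (choroid plexus and blood), in LPS+DMA against LPS 0.68, 0.74 and 0.76 under the first 3, and in LPS+DMA against PBS 2.53 and 4.56 under the first 2. Pseudocount and voom values are on other log2 scales by construction. The stricter filter leaves out Chil3, and Chit1 enters only with no filter.

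Genes called in LPS against PBS, 2 as reported, were 1 with the other pseudocount, no filter, voom or the replicate block, 4 with only the 2 arms compared or without the Gabra6 libraries, 0 with the region (forebrain minus cerebellum) or choroid plexus and blood covariates, and 0 to 672 with a library left out (672 without LPS female 2). In LPS+DMA against LPS the 1892 became 83 with no filter, 2872 with per-million scaling, 2972 with voom, 5 with 2 arms or without the Gabra6 libraries, 0 with either covariate set, and 7 to 3465 with a library left out: 11, 7 and 22 without LPS female 1, LPS male 1 and LPS male 2, and 3465 without LPS female 2. In LPS+DMA against PBS the 2 became 1 with the replicate block or region covariate, 0 with no filter, no sex term, 2 arms, voom, the Gabra6 libraries left out or the choroid plexus and blood covariates, and 0 to 6 with a library left out. Chil1 lost its call in LPS+DMA against LPS (0 members) with either covariate set or without the Gabra6 libraries, and in LPS+DMA against PBS in these and with no filter, no sex term, 2 arms, voom and the replicate block (0), with 0 to 1 when a library was left out. Apart from fewer samples, the cause of these losses was not tested. The alternative activation list had 0 calls with the stricter filter, 2 arms, either covariate set or no Gabra6 libraries (0 to 2 with a library left out), the glycosidases 1 with no filter, 8 per-million, 7 with voom and 0 under the same 2 arms, covariates and Gabra6 settings (0 to 3), and the lipid-laden list 1 with no filter and 0 under those settings (0 to 7).

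Same-numbered animals were not shown to be paired: the correlation of their deviations across genes was 0.452, -0.0567 and 0.0365 in females and -0.0220, 0.135 and -0.0705 in males (PBS with LPS, PBS with LPS+DMA, LPS with LPS+DMA). With the replicate block, Chil1 in LPS+DMA against LPS was unchanged at -1.16 and passed, 2040 genes were called there, and Abcg1 no longer passed. Chil3, with at most 108 reads a library, and Chit1, with at most 11, are limited by depth.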

Other observations

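Chil5, a GH18 relative of the 4 genes, was present in the same libraries as Gabra6, the receptor subunit of cerebellar granule cells. Chil5 stood at 3.34 FPKM in PBS female 1, 3.44 in LPS female 1, 0.643 in LPS male 1 and 2.27 in LPS male 2, where Gabra6 stood at 74.6, 114, 15.6 and 90.5 FPKM. In the other 8 libraries Chil5 was at most 0.204 FPKM and Gabra6 at most 0.170. LPS male 1 was the lowest of the 4 for both genes. No library of the LPS+DMA arm held more than 8 reads of Chil5.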
